A study of Mus musculus with 2 samples.

Results

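The 10 genes described here cover the making, removal and sensing of prostaglandins. They were listed by symbol for their roles in the pathway and taken from the deposited tables, out of 55363 genes in all. The set holds the phospholipase Pla2g4a, the cyclooxygenases Ptgs1 and Ptgs2, the prostaglandin E synthases Ptges and Ptges3, the prostacyclin synthase Ptgis, the uptake carrier Slco2a1, the breakdown enzyme Hpgd and the prostaglandin E2 receptors Ptger2 and Ptger4. All 10 were in both files, each in a single row, and all 10 reached 1 FPKM (sequenced fragments corrected for gene length and library size) in one or both libraries. For Ptgs2 and Ptger2 that was the f/f library alone, so that passing this limit and being lower in d/d go together for them.

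RNA was sequenced from whole uterus of Mettl14 d/d mice and of Mettl14 f/f mice on gestational day 4, counting the day of the vaginal plug as day 1. The females were 6 to 8 weeks old when mated to fertile males, and the uterus was labelled as a mixture of cell types. In the usual notation d/d stands for deleted and f/f for floxed alleles of Mettl14, which encodes a subunit of the complex that writes N6-methyladenosine on RNA; the sources used here do not give the strain, the driver of the deletion, or whether a library held 1 animal or a pool. With 1 library for each genotype, no value has an error between animals, no test was possible, and each difference below is one between these libraries.

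Prostaglandins are short-lived lipid signals. Cytosolic phospholipase A2, the product of Pla2g4a, frees arachidonic acid from membranes, cyclooxygenases turn it into a common precursor, and terminal synthases convert that precursor into the single prostaglandins. Receptors on the cell surface read the signal, and carrier uptake followed by oxidation inside the cell ends it. In the mouse uterus this pathway is known for its part in vascular permeability, embryo attachment and the decidual response, and loss of Pla2g4a delays implantation.

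Differences of 2-fold or more lay in the RNA of the phospholipase Pla2g4a, the inducible cyclooxygenase Ptgs2, the carrier Slco2a1 and the receptors Ptger2 and Ptger4. Pla2g4a was 3.58-fold higher and Slco2a1 3.59-fold higher in the d/d library. Ptger2 was 18.9-fold lower, Ptgs2 12.5-fold lower and Ptger4 2.55-fold lower in it. The other 5 genes, Ptgs1, Ptges, Ptges3, Ptgis and Hpgd, were all lower in d/d by less than 2-fold. On the scale used for counting, log2 of the ratio of (FPKM + 1), d/d over f/f, a gene was called higher or lower at 1 or more in size, which is 2-fold. By that rule 2 of the 10 genes were higher in d/d and 3 were lower. Over all 16263 genes that reached 1 FPKM in either library, 10.2% were higher, 8.28% were lower and 18.4% were one or the other. The median log2 ratio was -0.40 for the 10 genes and -0.01 for all genes.

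**Figure D1:**
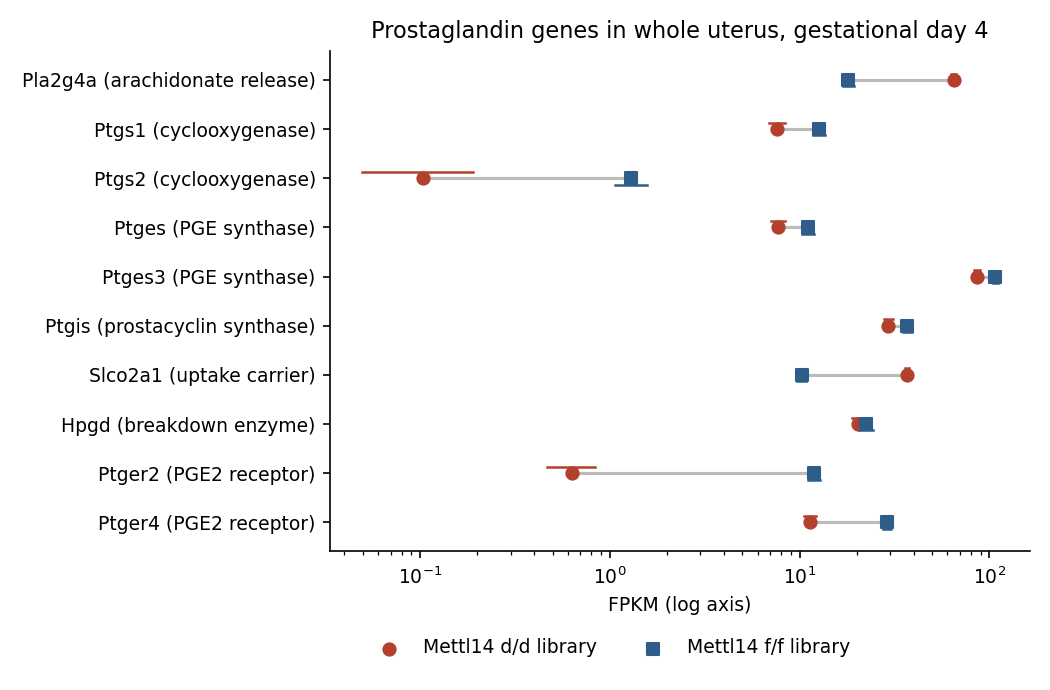
FPKM on a log axis for the 10 genes in the d/d library (circles) and the f/f library (squares), ordered by role; short lines above and below give 95% counting intervals and cover counting error only. Pla2g4a and Slco2a1 lie to the right in d/d, and Ptger2 and Ptgs2 are the only genes of the 10 below 1 FPKM, both in d/d.

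Estimated depth was 22950000 fragments for d/d and 19650000 for f/f, and 15216 genes in d/d and 15417 in f/f reached 1 FPKM. Mettl14 itself was 3.21 FPKM in the d/d library and 13.6 FPKM in the f/f library, lower in the library labelled d/d. Each list of marker genes of the cell types of the uterus had RNA in both libraries, but in unlike amounts and with some single markers at 0. Of 10 epithelial markers 9 were called higher in d/d, with a summed level of 2404 FPKM in d/d and 414 FPKM in f/f, and of 7 macrophage markers 4 were higher, with 1192 FPKM in d/d and 462 FPKM in f/f. Of 10 stromal markers 6 were lower (3245 FPKM in d/d, 5525 FPKM in f/f), of 8 endothelial markers 4 (183 FPKM in d/d, 382 FPKM in f/f), of 8 smooth muscle markers 3 (3242 FPKM in d/d, 5000 FPKM in f/f) and of 6 mast cell markers 5 (12.9 FPKM in d/d, 42.1 FPKM in f/f). Of 8 gland markers 6 were lower (15.7 FPKM in d/d, 2288 FPKM in f/f), and the gland genes Prss28, Spink1 and Ttr were listed at 0 in d/d. No epithelial, stromal, endothelial, smooth muscle, mast cell or macrophage marker was at 0. Of 5 platelet markers 2 reached 1 FPKM in either library and neither was called (76.8 FPKM in d/d, 52.2 FPKM in f/f over all 5), with Gp1bb at 0 in d/d and Gp9 at 0 in f/f. Of 7 neutrophil markers 2 were higher (179 FPKM in d/d, 115 FPKM in f/f), with Elane at 0 in both libraries and Ly6g at 0 in f/f, and of 4 mesothelial markers 2 were lower (20.03 FPKM in d/d, 87.4 FPKM in f/f). The part these shifts have in the prostaglandin genes was not tested, and in bulk tissue fewer cells of a type and less RNA per cell cannot be told apart. None of 12 reference genes passed 2-fold (14813 FPKM in d/d, 11981 FPKM in f/f). Their log2 ratios ran from -0.40 to 0.96, with a median of 0.04.

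The stretches of DNA before a RefSeq start of each of the 5 genes past 2-fold are shown because genes are usually controlled near their starts. For Slco2a1 the RefSeq start, 103008487, lies inside the gene span given below, which begins at 102988712. Its window is thus not upstream of that span. For Ptger2 the RefSeq start, 44988111, lies upstream of the span given below, which begins at 44988195. The 2 sources give the same starts for Pla2g4a, Ptgs2 and Ptger4. Each is the 250 bases upstream of a RefSeq start on GRCm38.p6, read along the gene, with capitals marking matches to any of 9 short motifs searched on both strands. Pla2g4a lies at chr1:149961291-149961540 on the minus strand, Slco2a1 at chr9:103008237-103008486 on the plus strand, Ptgs2 at chr1:150099781-150100030 on the plus strand, Ptger2 at chr14:44987861-44988110 on the plus strand and Ptger4 at chr15:5244188-5244437 on the minus strand.
Pla2g4a: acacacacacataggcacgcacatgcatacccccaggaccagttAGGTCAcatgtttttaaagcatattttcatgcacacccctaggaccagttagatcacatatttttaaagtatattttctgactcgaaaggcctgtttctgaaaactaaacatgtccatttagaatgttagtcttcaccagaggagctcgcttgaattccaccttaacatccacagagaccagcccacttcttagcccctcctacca
Slco2a1: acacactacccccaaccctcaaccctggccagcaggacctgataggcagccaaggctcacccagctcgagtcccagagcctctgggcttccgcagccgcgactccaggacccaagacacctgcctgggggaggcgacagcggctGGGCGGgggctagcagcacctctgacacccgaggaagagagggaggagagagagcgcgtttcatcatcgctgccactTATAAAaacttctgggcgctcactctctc
Ptgs2: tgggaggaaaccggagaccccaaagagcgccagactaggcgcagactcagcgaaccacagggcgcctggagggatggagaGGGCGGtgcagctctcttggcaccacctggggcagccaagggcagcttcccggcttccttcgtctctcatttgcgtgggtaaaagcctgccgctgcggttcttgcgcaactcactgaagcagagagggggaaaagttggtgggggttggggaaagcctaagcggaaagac
Ptger2: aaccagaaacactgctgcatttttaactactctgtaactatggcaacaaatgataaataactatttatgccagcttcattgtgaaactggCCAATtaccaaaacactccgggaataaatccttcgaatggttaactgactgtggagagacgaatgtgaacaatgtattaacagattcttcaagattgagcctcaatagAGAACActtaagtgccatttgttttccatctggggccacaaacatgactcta
Ptger4: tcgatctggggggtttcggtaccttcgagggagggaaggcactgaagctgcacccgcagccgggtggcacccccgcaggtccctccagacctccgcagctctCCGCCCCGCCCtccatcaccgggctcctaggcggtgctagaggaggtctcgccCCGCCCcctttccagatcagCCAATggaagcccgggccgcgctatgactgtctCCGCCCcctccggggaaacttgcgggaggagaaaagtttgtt

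The motifs were the TATA box TATAAA, the GC box GGGCGG, the CCAAT box CCAAT, the E-box CACGTG, the cyclic AMP response element TGACGTCA, the AP-1 site TGANTCA, the progesterone receptor half-site AGAACA, the nuclear receptor half-site AGGTCA and the estrogen response element, which is GGTCA and TGACC with any 3 bases between. The 250-base window of Slco2a1 held a TATA box from 29 to 24 bases before its RefSeq start, a motif that 12.4% of all 32851 such windows held. Slco2a1, Ptgs2 and Ptger4 each had at least 1 GC box, found in 32.7% of all windows, and Ptger4 had 4, of which the 2 farthest from the start overlap by 1 base. Ptger2 and Ptger4 each had 1 CCAAT box, found in 33.8% of windows. Among the windows shown, a progesterone receptor half-site was found in Ptger2 alone, from 52 to 47 bases before its RefSeq start, and 16.1% of all windows held one. Pla2g4a had 1 nuclear receptor half-site, from 206 to 201 bases before the start, as did 14.02% of windows. No match to the estrogen response element, the cyclic AMP response element, the E-box or the AP-1 site was found in these 5 windows. Bases after these annotated starts, or farther upstream, were not searched, so this does not show that the genes lack such sites. Base composition separated the 2 E receptors, with 38% G or C and 3 CpG in the Ptger2 window and 66.8% and 19 CpG in that of Ptger4. Across all windows the median was 52.4% G or C and 6 CpG. RefSeq gives a second start for Pla2g4a, whose window is not shown and which held a progesterone receptor half-site from 221 to 216 bases and a TATA box from 200 to 195 bases before that start.

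**Figure D2:**
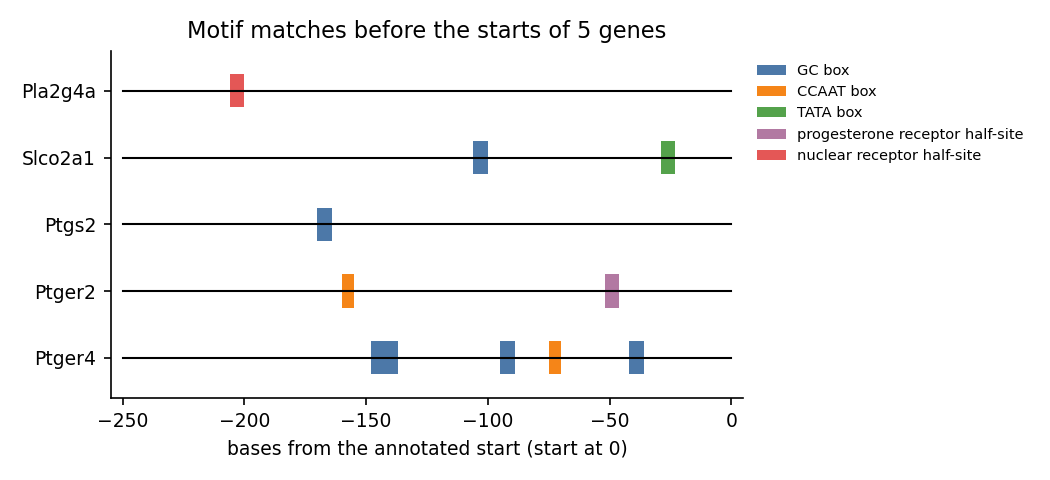
Motif matches (coloured blocks) in the 250 bases before RefSeq starts of the 5 genes past 2-fold, with the distance from that start in bases on the x axis. Ptger4 carries 4 GC box matches and Slco2a1 the only TATA box close to the start, the CCAAT box is in Ptger2 and Ptger4, and the windows drawn for Pla2g4a and Slco2a1 share no motif.

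At the head of the pathway, Pla2g4a had 64.7 FPKM in the d/d library and 18.1 FPKM in the f/f library. The d/d library was thus the high one, 3.58-fold, and a 95% interval for counting error put the ratio between 3.33 and 3.85. Its log2 ratio of 1.78 was reached or passed by 593 of the 16263 genes. The gene (ENSMUSG00000056220) spans 149829618 to 149961290 of chromosome 1 on the minus strand, and the intervals in this account rest on fragment numbers estimated from depth and the longest coding transcript.

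The cyclooxygenases carry out the committed step. Ptgs1, the form known for steady expression, had 7.59 FPKM in d/d and 12.7 FPKM in f/f, a 1.67-fold lower level in d/d that stayed under 2-fold (counting interval 1.47 to 1.89). The gene (ENSMUSG00000047250) lies on chromosome 2, plus strand, from 36230426 to 36252272. Ptgs2, the inducible form, which in mice appears in cells around the attaching embryo, was the lowest of the 10 genes in both libraries, at 0.103 FPKM in d/d and 1.29 FPKM in f/f. That stands for about 10 fragments in d/d and about 106 in f/f. The ratio was 12.5-fold lower in d/d with a counting interval of 6.47 to 26.6, but on the log2(FPKM + 1) scale it was -1.06, close to the limit of the call. The call was lost with a pseudocount of 5, at -0.30, and after both libraries were rescaled to the same, smaller sum, at -0.90. The deposited sums were already close, at 1.29e+06 FPKM in d/d and 1.28e+06 FPKM in f/f. The rescaling thus mainly lowered both values against the pseudocount of 1. Ptgs1 exceeded Ptgs2 73.4-fold in d/d and 9.78-fold in f/f.

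Pla2g4a and Ptgs2 are neighbours on chromosome 1 that point away from each other, with 138.7 kb between their starts and no protein-coding gene in that stretch. The RNA of Ptgs2 (ENSMUSG00000032487, 150100031 to 150108227, plus strand) and that of Pla2g4a differed in opposite directions. The noncoding gene Ptgs2os, which starts just upstream of Ptgs2 on the other strand, was listed at 0 in both libraries. Within one library the level of Pla2g4a over the summed cyclooxygenases was 8.41 in d/d and 1.30 in f/f, a 6.49-fold higher ratio in d/d that does not depend on scaling between the libraries.

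**Figure D3:**
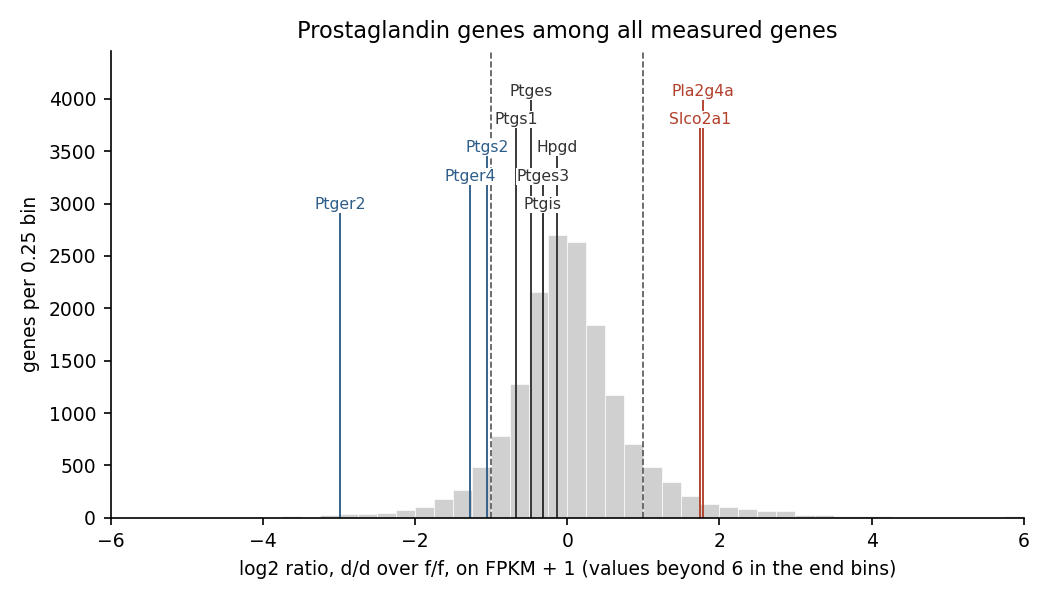
Histogram of log2 ratios, d/d over f/f on FPKM + 1, for 16263 genes, with the 10 prostaglandin genes as labelled lines and the 2-fold limits dashed; 25 genes beyond 6 in size are in the end bins. Ptger2 at -2.99 lies far out on the lower side and Pla2g4a and Slco2a1 on the upper side, while 5 genes lie between 0 and -1.

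The terminal synthases differed little. Ptges, the inducible membrane-bound prostaglandin E synthase, had 7.70 FPKM in d/d and 11.1 FPKM in f/f, 1.44-fold lower in d/d. Ptges3, the cytosolic synthase that is also the Hsp90 cochaperone p23, was the most abundant of the 10 genes in both libraries, at 85.9 FPKM in d/d and 107 FPKM in f/f. Its pseudogene Ptges3-ps was listed at 147 FPKM in d/d and 159 FPKM in f/f, so fragments of this near copy may be split between the rows and the level of Ptges3 is uncertain. Ptgis, which makes prostacyclin, had 29.3 FPKM in d/d and 36.9 FPKM in f/f. For these 3 genes the d/d library was the lower one, with log2 ratios of -0.47 for Ptges, -0.32 for Ptges3 and -0.32 for Ptgis. The balance between prostacyclin and inducible prostaglandin E synthase was alike, with Ptgis at 3.81 times Ptges in d/d and 3.33 times in f/f. Ptges (ENSMUSG00000050737) and Ptgis (ENSMUSG00000017969) are both minus-strand genes of chromosome 2, at 30889471 to 30929863 and 167191805 to 167240604. Ptges3 (ENSMUSG00000071072) lies on the plus strand of chromosome 10, from 128058954 to 128077272.

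The RNA of the genes for removal differed unequally between the libraries. Slco2a1, the carrier that takes prostaglandins into the cell for breakdown, had 36.9 FPKM in d/d and 10.3 FPKM in f/f. It was 3.59-fold higher in d/d, with a counting interval of 3.39 to 3.81 and a log2 ratio of 1.75, which 617 genes reached or passed. Hpgd, the hydroxyprostaglandin dehydrogenase that inactivates what is taken up, had 20.4 FPKM in d/d and 22.4 FPKM in f/f. Its d/d over f/f ratio of 0.91 had a counting interval of 0.81 to 1.02, so a difference was not detectable at this depth. The level of Slco2a1 over Hpgd was 1.81 in d/d and 0.459 in f/f, so the gene with more RNA per length of the pair was the carrier in d/d and the enzyme in f/f. Slco2a1 (ENSMUSG00000032548) spans 102988712 to 103096002 on the plus strand of chromosome 9 and Hpgd (ENSMUSG00000031613) spans 56294585 to 56321043 on the plus strand of chromosome 8.

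Both E receptors of the set were lower in d/d. Ptger2 and Ptger4 encode receptors that raise cyclic AMP through the stimulatory G protein. Ptger2 had 0.631 FPKM in d/d and 11.9 FPKM in f/f, about 49 and 793 fragments, a level 18.9-fold lower in d/d with a counting interval of 14.2 to 25.8. Its log2 ratio of -2.99 was matched or passed by 123 genes, 0.756% of those measured. Ptger4 had 11.3 FPKM in d/d and 28.9 FPKM in f/f, 2.55-fold lower in d/d with a counting interval of 2.34 to 2.78 and a log2 ratio of -1.28. Their sum was 12.0 FPKM in d/d and 40.9 FPKM in f/f, and Ptger4 exceeded Ptger2 17.96-fold in d/d and 2.43-fold in f/f.

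Genes on the opposite strand overlap exons of both receptors, and without a stated strand setting their fragments cannot be told apart. Gm17173, an antisense gene at Ptger2 (ENSMUSG00000037759, chromosome 14, 44988195 to 45003820, plus strand), was listed at 2.21 FPKM in d/d and 0.0196 FPKM in f/f, opposite to Ptger2. Ttc33, which overlaps Ptger4 (ENSMUSG00000039942, chromosome 15, 5206661 to 5244187, minus strand), was 32.3 FPKM in d/d and 23.4 FPKM in f/f, also opposite to its partner.

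The rank of the 10 genes by level differed between the libraries. In d/d the order was Ptges3, Pla2g4a, Slco2a1, Ptgis, Hpgd, Ptger4, Ptges, Ptgs1, Ptger2 and Ptgs2, and in f/f it was Ptges3, Ptgis, Ptger4, Hpgd, Pla2g4a, Ptgs1, Ptger2, Ptges, Slco2a1 and Ptgs2. Counting intervals of neighbours overlapped for Ptges and Ptgs1 in d/d, and in f/f for Ptgs1 and Ptger2, for Ptger2 and Ptges and for Ptges and Slco2a1, so the order within these pairs is not resolved. Slco2a1 moved farthest, as number 3 in d/d and number 9 in f/f. Ptger4 was number 6 in d/d and number 3 in f/f.

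The remaining cell surface receptors showed which of the family shared the direction of Ptger2 and Ptger4. Ptger3, the prostaglandin E2 receptor that lowers cyclic AMP, had 6.20 FPKM in d/d and 31.6 FPKM in f/f (log2 ratio -2.18). The prostaglandin F receptor Ptgfr had 1.30 FPKM in d/d and 5.31 FPKM in f/f (-1.45), and the prostacyclin receptor Ptgir had 0.574 FPKM in d/d and 2.86 FPKM in f/f (-1.30). These 3 were thus low in d/d as well. Ptger1 had 1.45 FPKM in d/d and 1.40 FPKM in f/f, and the prostaglandin D receptor Ptgdr2 had 1.34 FPKM in d/d and 1.29 FPKM in f/f. The thromboxane receptor Tbxa2r had 5.78 FPKM in d/d and 2.96 FPKM in f/f, under 2-fold on the log2(FPKM + 1) scale. Ptgdr stayed under 1 FPKM in both libraries and was not counted, at 0.0698 FPKM in d/d and 0.817 FPKM in f/f. These stand for about 5 and 46 fragments, so Ptgdr too was lower in d/d, at a low level. Of the 8 measured receptors 5 were called lower in d/d and none higher, with a median log2 ratio of -1.29, beside 8.28% lower and a median of -0.01 over all genes; 2 of the 5 are the receptors of the set. Ptger2 and Ptgir reached 1 FPKM in f/f alone, and with a pseudocount of 5 the calls of Ptgfr (-0.71) and Ptgir (-0.50) were lost, which left 3. All 4 prostaglandin E2 receptors together summed to 19.6 FPKM in d/d and 73.8 FPKM in f/f. Ptger2 made up 3.22% of that sum in d/d and 16.2% in f/f, and Ptger4 57.8% in d/d and 39.2% in f/f. Ptger3 made up 31.6% in d/d and 42.7% in f/f, so the largest share was that of Ptger4 in d/d and of Ptger3 in f/f.

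**Figure D4:**
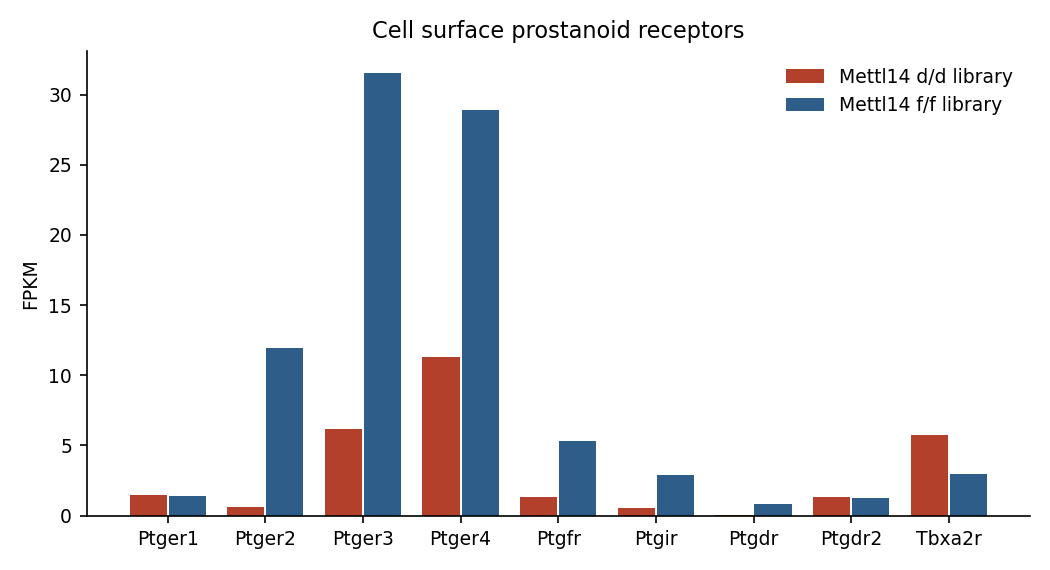
FPKM of the 9 cell surface prostanoid receptors in the d/d library (left bar of each pair) and the f/f library (right bar); there is 1 library per genotype and so no error bar. Ptger3, Ptger4 and Ptger2 are the tallest bars in f/f and each is lower in d/d, while Tbxa2r, at 5.78 FPKM in d/d and 2.96 FPKM in f/f, is higher in d/d.

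Of 41 other genes of the pathway, 32 reached 1 FPKM in either library, and 5 of them were called higher and 4 lower in d/d, with a median log2 ratio of 0.03. These are 15.6% and 12.5% of the 32, beside 10.2% and 8.28% over all genes. Of the called ones, Pla2g2d, Pla2g2e and Ptgds reached 1 FPKM in d/d alone, and Pla2g10 and Ptgir in f/f alone, so their calls and their passing that limit are linked. Among other phospholipases, which also free fatty acids, Pla2g2e and Pla2g2d were listed at 0 in f/f and had 10.9 and 2.80 FPKM in d/d. Pla2g10 had the opposite pattern, listed at 0 in d/d and at 4.93 FPKM in f/f. Pla2g5 had 1.02 FPKM in d/d and 0.254 FPKM in f/f, Pla2g6 had 4.42 FPKM in d/d and 7.60 FPKM in f/f, and Pla2g15 had 20.95 FPKM in d/d and 15.4 FPKM in f/f. None of these 3 was called on the log2(FPKM + 1) scale, where Pla2g5 was at 0.69, although its plain FPKM ratio was 4.03. The secreted enzymes Pla2g2d, Pla2g2e, Pla2g5 and Pla2g10 are a different family from the cytosolic enzyme of Pla2g4a.

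Of the other synthases and reductases 1 was called. Ptges2, a further prostaglandin E synthase, had 29.1 FPKM in d/d and 17.0 FPKM in f/f, in the direction opposite to Ptges and Ptges3. With Ptges2 included the 3 prostaglandin E synthases summed to 123 FPKM in d/d and 135 FPKM in f/f. Ptgds, which makes prostaglandin D, had 2.17 FPKM in d/d and 0.142 FPKM in f/f and was called higher, while the haematopoietic enzyme for the same product, Hpgds, had 4.84 FPKM in d/d and 6.35 FPKM in f/f. The thromboxane synthase Tbxas1 had 8.16 FPKM in d/d and 6.62 FPKM in f/f. Of the genes for prostaglandin F formation, Prxl2b had 16.7 FPKM in d/d and 20.7 in f/f, and the aldo-keto reductase Akr1b3 had 32.1 FPKM in d/d and 31.3 in f/f. The RNA of both differed little between the libraries. The related Akr1b8 had 19.1 FPKM in d/d and 29.5 in f/f, and Akr1b7 had 0.654 FPKM in d/d and 2.03 in f/f. The carbonyl reductases Cbr1 and Cbr3 had 77.4 and 50.7 FPKM in d/d, and 50.8 and 38 FPKM in f/f. None of the genes for prostaglandin F formation or carbonyl reduction was called, and single values of the related Akr1b genes are uncertain. Akr1b7 was at -0.87 on the log2(FPKM + 1) scale, although its plain FPKM was 3.11-fold lower in d/d.

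No other gene of breakdown and transport was called, whereas Slco2a1 was. The reductases that act after Hpgd, Ptgr1 and Ptgr2, had 9.72 and 23.9 FPKM in d/d and 14.8 and 23.9 FPKM in f/f, and the related Zadh2 had 40.3 FPKM in d/d and 55.2 in f/f. The carbonyl reductase Cbr4 had 17.5 FPKM in d/d and 17.4 in f/f, and the efflux pump Abcc4, which exports prostaglandins, had 6.82 FPKM in d/d and 10.6 in f/f.

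Genes that act beside the receptors were mixed. Ptgfrn, whose protein binds and restrains the prostaglandin F receptor, had 70.1 FPKM in d/d and 32.1 FPKM in f/f, opposite to Ptgfr. The nuclear receptors Pparg and Ppard, which some prostaglandins can bind, had 5.68 and 13.1 FPKM in d/d and 1.53 and 14.1 FPKM in f/f, and Pparg was called higher. Lpar3, the lysophosphatidic acid receptor that acts upstream of Ptgs2 in mouse implantation, had 4.70 FPKM in d/d and 2.34 FPKM in f/f, and Enpp2, which makes its ligand, had 10.9 FPKM in d/d and 8.94 FPKM in f/f. Neither was called on the log2(FPKM + 1) scale, where Lpar3 was at 0.77, although its plain FPKM ratio was 2.01. Lpar3 lay on the other side from Ptgs2.

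**Figure D5:**
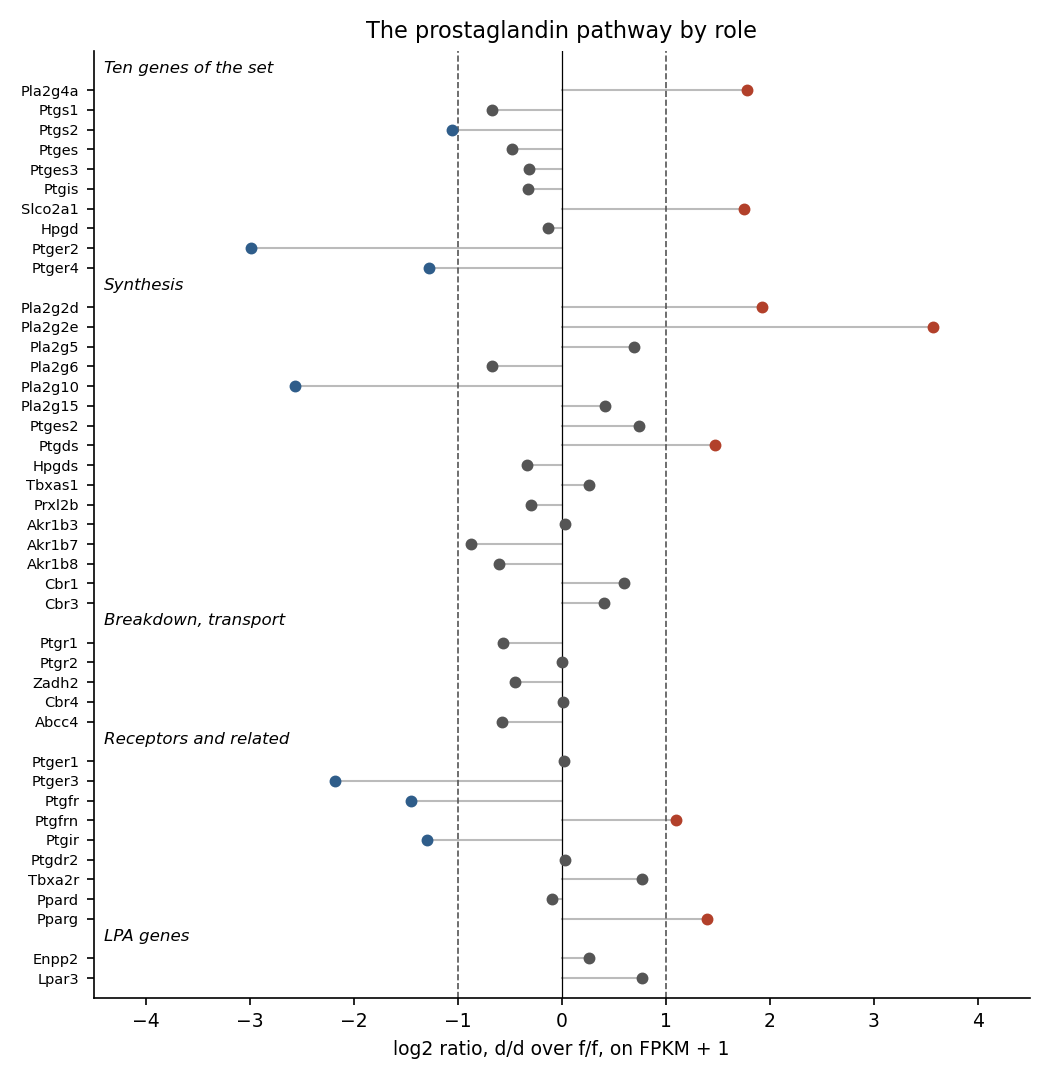
Log2 ratios, d/d over f/f on FPKM + 1, for the 10 genes and for 32 measured genes of the wider pathway, grouped by role, with the 2-fold limits dashed. Receptors hold 5 of the 7 genes to the left of the lower limit, and of the genes for breakdown and transport Slco2a1 alone lies outside the limits.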

How the data were processed

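The authors sequenced 1 whole uterus library per Mettl14 genotype. The deposited values are FPKM made by the authors, and the unit was read from the values and from the tool named. Per the submitters' processing notes, HISAT2 2.2.1, Cufflinks 2.2.1 and build mm10 were used. Per the labels' protocols, total RNA came from TRIzol extraction and the TruSeq kit was used for libraries. The sources used here do not give the annotation release, the read length or the strand setting. FPKM depends on how fragments are shared among isoforms, overlapping genes and near copies.

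Each file has 55483 rows, and rows sharing a symbol were summed to 55363 genes. The log2 ratio, d/d over f/f, used a pseudocount of 1 FPKM, which understates the change of genes at low levels. Genes that reached 1 FPKM in either library were counted, and 2-fold was the limit of a call, with no test. Members, lists and rules were chosen with earlier results of these data known. All members, Mettl14 and every measured gene of the wider list are named, and markers are given by list. In the wider list Prxl2b is Fam213b and was counted once.

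Depth was estimated from low values of genes with 1 transcript of at least 2000 nt, where FPKM times length falls near whole fragments. Length was reduced by 300 nt, the best offset tried, and 86.4% of low values in d/d and 89.0% in f/f lay within 0.1 of a whole number. Numbers of fragments are approximate, and exact Poisson and Clopper-Pearson intervals (95%) cover counting error only. Positions and transcript lengths come from GENCODE M21 (GRCm38), which held 55137 of the gene IDs, and upstream sequences from RefSeq on GRCm38.p6, which matched 9 of the 10 symbols. Scripts ran in Python 3.11.15 and were tested on simulated data.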

Additional observations from a re-analysis of the deposited data

How the results depend on the processing

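The 8 alternatives changed the pseudocount, the filter, the scaling or the handling of repeated symbols. They gave 79 values for the 10 prostaglandin genes, of which 79 had the direction reported and 77 the same side of 2-fold. The 2 exceptions were Ptgs2 with a pseudocount of 5 (-0.30) and after both libraries were rescaled to the same, smaller sum (-0.90). That rescaling mainly lowered both values against the pseudocount of 1. Most of the agreement in direction was fixed in advance. A change of pseudocount cannot reverse a direction. The filters and the handling of repeated symbols leave the value of a gene with a single row as it was. Only the rescalings could have changed a direction. With a pseudocount of 0.1 the log2 ratio of Ptgs2 was -2.78, and that of Ptger2 ranged from -4.04 to -1.59. A filter of 5 FPKM left Ptgs2 out. The 2 higher genes of the set were counted under all 8 alternatives, and the lower ones numbered 2 or 3. With a pseudocount of 5, all genes called were 869 higher and 539 lower, against 1652 and 1346 with 1, and the wider list had 2 higher and 1 lower, against 5 and 4. A filter of 5 FPKM gave 3 higher and 2 lower in the wider list. A larger pseudocount shrinks low values and a stricter filter tests fewer genes. No paired analysis was possible because each genotype has 1 library, and for the same reason no library could be left out. Depth limits Ptgs2 most, with about 10 fragments in d/d.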

Other observations

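Counts of short motifs in the longest coding transcript differed among the 10 genes. GGACT, a frequent form of the site that carries N6-methyladenosine, occurred 7 times in Ptger2 and 8 times in Ptgs2, or 1.90 and 1.80 per kb, against a median of 1.05 per kb over 13755 measured protein-coding genes. It occurred 3 times in Ptger4 (0.906 per kb), 6 times in Slco2a1 (0.842 per kb), once in Pla2g4a (0.350 per kb) and not at all in Hpgd. Ptges3 and Ptges, neither past 2-fold, also lay above the median, with 3 in the 2000 nt of Ptges3 and 1.37 per kb in Ptges, and Ptgs1 and Ptgis lay below it, at 0.698 and 0.475 per kb. ATTTA, the core of AU-rich elements known to shorten the life of mRNA, occurred 14 times in the 3′ UTR of Ptgs2 (5.73 per kb) and 4 times in that of Pla2g4a (9.03 per kb), with a median of 1.35 per kb over 13096 genes. It stood at 4.77 per kb in Hpgd, 4.06 in Ptger4, 3.37 in Ptges3, 3.29 in Ptger2 and 0.875 in Slco2a1, and Ptgs1, Ptges and Ptgis had none. A match says nothing of whether a site is used, and methylation was not analysed here.

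On the log2(FPKM + 1) scale, protein-coding neighbours within 500 kb of the stretch from Pla2g4a to Ptgs2 had smaller differences than either. Hmcn1 was at -0.78 on that scale, although its plain FPKM was more than 2-fold lower in d/d. Prg4, under 1 FPKM in both libraries, was also more than 2-fold lower in plain FPKM, at 0.0364 FPKM in d/d and 0.149 FPKM in f/f. Odr4 had 22.1 FPKM in d/d and 22.1 FPKM in f/f, Tpr had 28.6 FPKM in d/d and 35.2 FPKM in f/f, and Hmcn1 had 0.631 FPKM in d/d and 1.79 FPKM in f/f, and these 3 are the neighbours that reached 1 FPKM in either library.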
